A study of Rattus norvegicus with 14 samples.

Results

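In the table of non-coding transcripts (ncRNAs), 9 genes had higher counts of small RNA fragments in most rats given amphetamine (AMPH) than in controls. These counts, from blood, rose together from animal to animal. Whether the same fragments were counted on several of the 9 genes was not tested. The 9 genes were chosen by that difference between the groups, since each has at least 1 transcript past the threshold of the test across all ncRNAs. Every transcript that carries one of the names was then taken, whether or not it had passed, which gave 12 of the 9199 transcripts in the table. Eri3, Insrr and AC114452.1 have 2 transcripts each, and the other 6 genes, AABR07004881.1, Rn60_3_0144.3, AC123293.2, LOC688754, AABR07042803.3 and AABR07065460.1, have 1 transcript each.

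The animals were adult male Sprague-Dawley rats of 85 to 90 days of age that all received 4 injections with 2 h between them. The 7 control animals were injected with saline and the 7 AMPH hyper animals with AMPH, under which the latter became hyperthermic. Blood was taken by cardiac puncture 3 h after the last injection and frozen whole, and 1 small RNA library was made per animal. AMPH and high body temperature came together in each AMPH hyper animal, and the animals of that group were cooled when needed to keep them alive, so that the effects of the drug, the temperature and the cooling cannot be told apart here.

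Small RNA libraries are best known as a source of miRNAs, but they also hold short pieces cut from longer RNAs. A small RNA library takes up short RNAs that end in a 5′ phosphate and a 3′ hydroxyl, here of 15 to 35 bases, so that a count on an ncRNA is the number of short fragments matched to it and not the amount of the full transcript. In whole blood, most RNA comes from red blood cells, platelets and white blood cells, and damaged tissues can add to it. Fewer cells of a type and less RNA per cell cannot be told apart in such samples.

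The name of each transcript in the table holds a transcript identifier, a gene name and a gene identifier, with no class, position or length. Of the 9 gene names, 2 are symbols in the RefSeq gene table of the GRCr8 assembly, and both are protein-coding genes. Eri3, also called Prnpip1, encodes an exoribonuclease of the ERI family, whose best known member trims histone mRNA and ribosomal RNA ends. Insrr encodes the insulin receptor-related receptor, a receptor tyrosine kinase that responds to alkaline pH outside the cell. The other 7 names are clone-based or provisional, and the table gives no function for them. The transcripts' own sequences and positions were not used here.

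The reads counted on all ncRNAs ranged from 1960725 to 4017262 per library in the controls and from 1346419 to 4417124 in the AMPH hyper group. The values are counts that the authors normalized to the upper quartile of each library, and 1 read is worth 6.29 to 47.6 normalized counts, depending on the library. The 12 transcripts took 0.0185% to 0.0614% of the ncRNA reads of a control library, with a median of 0.0335%, and 0.0319% to 0.775% in the AMPH hyper group, with a median of 0.252%. The red blood cell miRNAs (3 of 3 listed: miR-451-5p, miR-486 and miR-144-3p) had the highest summed level of the cell type markers in each library. Control replicate 3 (animal FG185) is a control by its label, whereas the study's list of animals places the mRNA sample of that animal in the AMPH hyper group. The label was followed here. This animal was the highest control in 5 of the 12 transcripts. Control replicate 4 (animal FG195) is in no group of the study's lists of animals. It was the lowest control in 7 of the 12 transcripts.

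In the test of the AMPH hyper group against control, limma with Benjamini-Hochberg adjustment, 11 of 8454 ncRNAs were past an adjusted p-value of 0.05, or 0.130%, and each of them was higher in the AMPH hyper group. Of the 12 transcripts described here 10 were among them, which is how their genes were chosen and is not a finding. The same holds for the 11 of the 12 that had an unadjusted p-value under 0.05, as 6.92% of all ncRNAs tested did (limma). The transcript of AC114452.1 ending in 80427 was the last inside the threshold, with an adjusted p-value of 0.0460, and the next ncRNA outside it had 0.0740 (limma). The median log2 fold-change was 2.58 over the 12 transcripts and -0.05 over all ncRNAs tested. Without AMPH hyper replicate 2 all of the 10 stayed past the threshold, whereas 0 did in 10 of the 14 fits that left out 1 animal, 1 without control replicate 3, 5 without AMPH hyper replicate 4 and 7 without AMPH hyper replicate 5 (limma, with 10 or 11 of the 12 at an unadjusted p-value under 0.05 in each fit). With control replicate 3 counted as AMPH hyper 0 were past it (limma, 10 at an unadjusted p-value under 0.05), as in limma without trend (11 at an unadjusted p-value under 0.05), and 7 were past it under quantile normalization and under median-of-ratios scaling.

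AABR07004881.1 (ENSRNOT00000083641) had the largest change of the 12 transcripts. Its normalized count was between 459 and 1121 in the controls, with a median of 829, and between 1067 and 59400 in the AMPH hyper group, with a median of 15283. In that group 6 of 7 animals exceeded the highest control, from 6483 upward, and AMPH hyper replicate 2 lay among the controls. The log2 fold-change was 4.02 (SE 0.59). These values rest on 17 to 111 reads in a control library and 48 to 2430 reads in an AMPH hyper library. The spread between animals also differed, with the highest AMPH hyper animal 55.7 times the lowest, or 9.16 times without replicate 2, against 2.44 times in the controls.

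In each of the 10 transcripts past the threshold, 6 AMPH hyper animals exceeded the highest control and replicate 2 did not. Of all ncRNAs tested, 0.769% had at least 6 AMPH hyper animals above every control. The 10 were chosen by this contrast, so that their separation is not a finding. None of the 12 (0 of 12) had 6 or more AMPH hyper animals below every control, as 0.343% of all ncRNAs tested did. AMPH hyper replicate 2 (animal FG188) was not above every control in any of the 12 transcripts. AMPH hyper replicate 4 was the highest and replicate 1 the second highest animal in all of the 10.

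**Figure D1:**
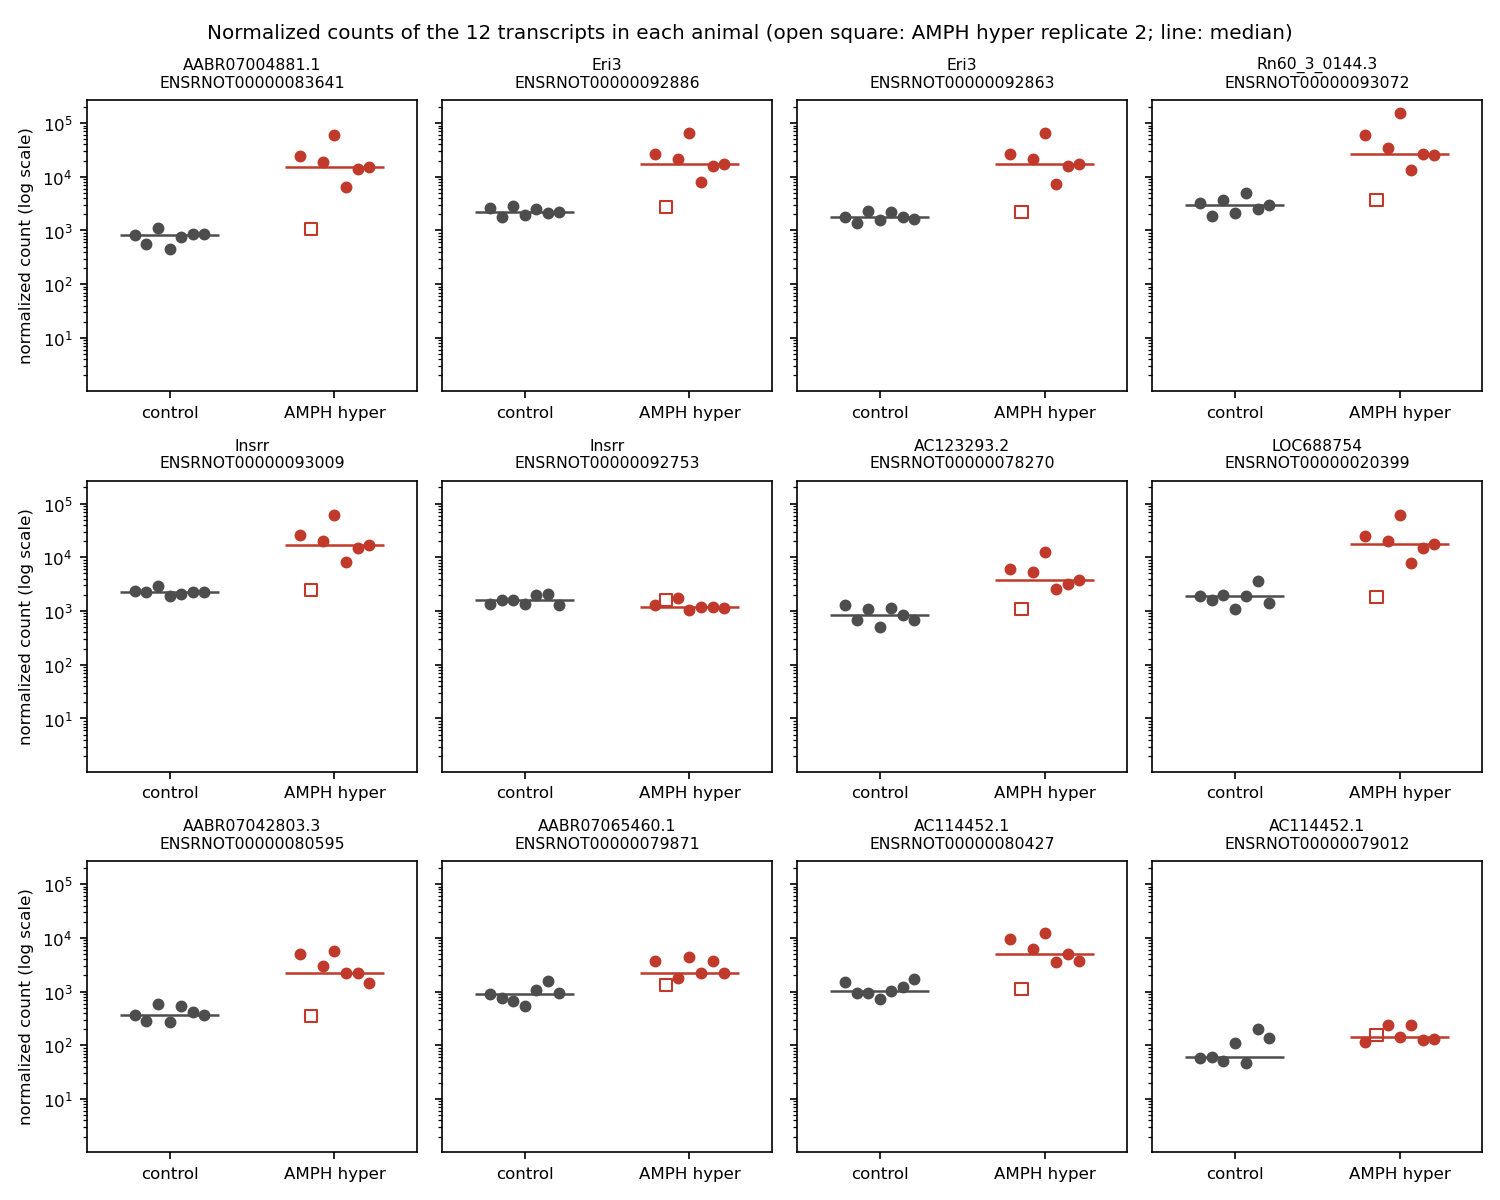
Normalized counts (log axis) of the 12 transcripts, 1 panel each, with 1 point per animal for the 7 control and 7 AMPH hyper animals and a line at the group's median. In 10 panels 6 of 7 AMPH hyper animals lie above every control and the open square, AMPH hyper replicate 2, lies at or near the control level, while the Insrr transcript ending in 92753 and the AC114452.1 transcript ending in 79012 do not show this separation.

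Both transcripts of Eri3 rose. The transcript ENSRNOT00000092886 had normalized counts of 1755 to 2828 in the controls, with a median of 2177, and of 2778 to 65371 in the AMPH hyper group, with a median of 17553. The transcript ENSRNOT00000092863 had 1388 to 2310 in the controls, with a median of 1769, and 2244 to 65200 in the AMPH hyper group, with a median of 17201. The 6 AMPH hyper animals other than replicate 2 began at 7966 and 7379, well above the highest control, and the controls were close to each other, within a factor of 1.61 and 1.66. The log2 fold-changes were 2.80 (SE 0.47) and 3.06 (SE 0.50).

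The transcripts of Insrr differed from each other. ENSRNOT00000093009 had normalized counts of 1919 to 2948 in the controls, with a median of 2282, and of 2444 to 61229 in the AMPH hyper group, with a median of 16767. Apart from replicate 2 the AMPH hyper animals were at 8103 or more, and the log2 fold-change was 2.71 (SE 0.47). ENSRNOT00000092753 had 1300 to 2103 in the controls, with a median of 1571, and 1057 to 1714 in the AMPH hyper group, with a median of 1208. The groups overlapped, with 4 of 7 AMPH hyper animals below every control, and the log2 fold-change was -0.28 (SE 0.19), which did not pass the threshold (limma, adjusted p = 0.767).

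LOC688754 (ENSRNOT00000020399) had normalized counts of 1108 to 3551 in the controls, with a median of 1907, and of 1822 to 61771 in the AMPH hyper group, with a median of 17384. AMPH hyper replicate 2 was inside the range of the controls and the other 6 animals were at 7897 or more. Its log2 fold-change was 2.96 (SE 0.53), and its controls varied more than those of Eri3, with the highest 3.20 times the lowest.

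Rn60_3_0144.3 (ENSRNOT00000093072) reached the highest normalized counts of the 12 transcripts, of 1857 to 4884 in the controls, with a median of 2962, and of 3644 to 150771 in the AMPH hyper group, with a median of 26042. The order of the AMPH hyper animals was nearly the same as for AABR07004881.1, with replicates 6 and 7 exchanged, and replicate 2 again lay within the control range. The log2 fold-change was 3.21 (SE 0.56).

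The remaining genes rose by less. AC123293.2 (ENSRNOT00000078270) had normalized counts of 514 to 1286 in the controls, with a median of 833, and of 1111 to 12514 in the AMPH hyper group, with a median of 3805. AABR07042803.3 (ENSRNOT00000080595) had 270 to 586 in the controls, with a median of 371, and 356 to 5686 in the AMPH hyper group, with a median of 2241. In both, the lowest AMPH hyper animal was replicate 2, inside the control range, and the next lowest were at 2552 and 1428. The log2 fold-changes were 2.20 (SE 0.40) and 2.46 (SE 0.46).

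AABR07065460.1 (ENSRNOT00000079871) had the smallest change of the 10, with a log2 fold-change of 1.54 (SE 0.29). Its normalized counts were 541 to 1564 in the controls, with a median of 886, and 1311 to 4457 in the AMPH hyper group, with a median of 2233. The 6 animals above every control began at 1810, close to the highest control.

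Of the transcripts of AC114452.1, ENSRNOT00000080427 had normalized counts of 730 to 1723 in the controls, with a median of 1023, and of 1133 to 12514 in the AMPH hyper group, with a median of 5083. Replicate 2 lay inside the control range, the other AMPH hyper animals were at 3483 or more, and the log2 fold-change was 2.09 (SE 0.40). ENSRNOT00000079012 had 46.5 to 205 in the controls, with a median of 61.2, and 113 to 241 in the AMPH hyper group, with a median of 143. That is 2 to 18 reads in a control library and 5 to 21 reads in an AMPH hyper library, where 3 reads are worth 18.9 to 143 normalized counts. The groups overlapped, with 2 of 7 AMPH hyper animals above every control, and the log2 fold-change of 0.92 (SE 0.42) did not pass the threshold (limma, adjusted p = 0.710).

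The rises of 5 transcripts, in normalized counts, were nearly equal in each of the 6 AMPH hyper animals other than replicate 2. For this, the median of the controls was subtracted from each AMPH hyper animal's normalized count, transcript by transcript. The 5 were grouped by this likeness of their rises, so that it is a description and not a finding. In AMPH hyper replicate 4, AABR07004881.1, both transcripts of Eri3, the Insrr transcript ending in 93009 and LOC688754 were 58571 to 63431 normalized counts above their own control medians, and in replicate 5, the animal with the smallest rise of the 6, 5610 to 5990. From animal to animal the mean rise of the 5 transcripts thus varied by a factor of 10.5, whereas within each of these 6 animals the largest rise of the 5 was no more than 1.10 times the smallest. In AMPH hyper replicate 2, which lay at the control level, the differences from the control median ran from -84.8 to 601 and were not alike.

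The other 4 animals showed the same closeness. The 5 rises were 23107 to 24339 in replicate 1 and 17813 to 19347 in replicate 3. They were 14454 to 15477 in replicate 7 and 12739 to 13981 in replicate 6. The levels from which these transcripts started were not equal, with control medians from 829 for AABR07004881.1 to 2282 for Insrr. The rise in normalized counts, by which they were grouped, and not the fold-change, was what the 5 transcripts shared. These are normalized counts per transcript and not levels per length, since the lengths of the transcripts were not used here.

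Of the 4 other transcripts, the Insrr transcript ending in 93009 kept its distance from AABR07004881.1 most closely. The mean of AABR07004881.1 minus Insrr was -1516 normalized counts (SD 193, n = 7) in the controls and -1527 (SD 283, n = 7) in the AMPH hyper group, while the means of the transcripts themselves were higher in the AMPH hyper group by 19057 and 19068. For the Eri3 transcripts the mean distance was larger in the AMPH hyper group, with a wide spread between animals. The mean of AABR07004881.1 minus Eri3 went from -1497 (SD 228, n = 7) in the controls to -2699 (SD 1519, n = 7) for the transcript ending in 92886, and from -1030 (SD 237, n = 7) to -2301 (SD 1631, n = 7) for that ending in 92863. Across the 7 AMPH hyper animals the slope on AABR07004881.1 was 1.01 for this Insrr transcript, 1.02 for LOC688754 and 1.08 for each of the Eri3 transcripts. These slopes describe animals that share a library between the transcripts compared, and the slopes for the same pairs in the controls, where the levels span a much smaller range, were 1.22, 1.61, 1.41 and 1.12.

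Other transcripts rose by a different number in the same animals. For each animal the rise was divided by that of AABR07004881.1, over the 6 AMPH hyper animals without replicate 2. Rn60_3_0144.3 rose by 1.57 to 2.52 times as much, with a median of 1.81. The ratio was highest in replicate 4, and the slope on AABR07004881.1 was 2.61 with all 7 AMPH hyper animals and 2.23 without replicate 4. AC123293.2 rose by 0.184 to 0.304 times as much, and the AC114452.1 transcript ending in 80427 by 0.182 to 0.435 times. AABR07042803.3 (0.073 to 0.331) and AABR07065460.1 (0.052 to 0.228) followed the rise of AABR07004881.1 least closely of the 10 transcripts past the threshold, with the highest ratio 4.53 and 4.39 times the lowest. For the Insrr transcript ending in 92753 the ratio was between -0.064 and 0.008, and for the AC114452.1 transcript ending in 79012 between 0.0014 and 0.032.

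**Figure D2:**
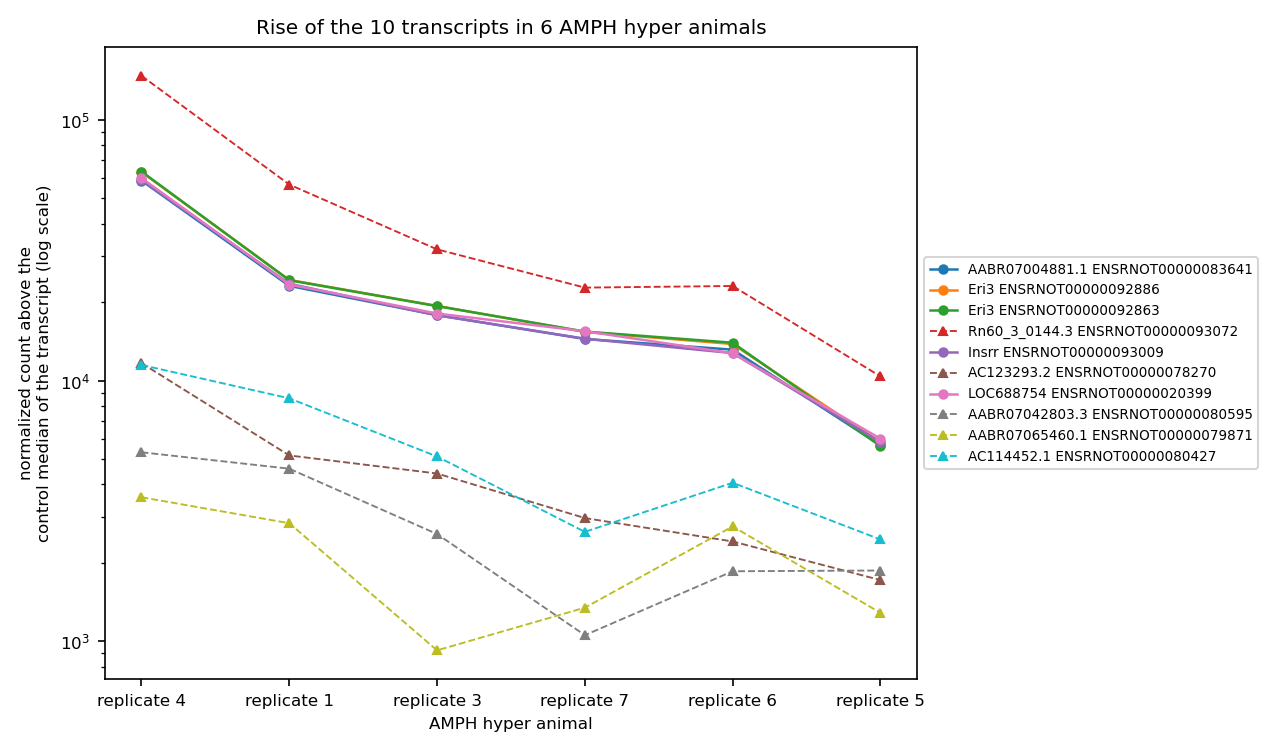
Normalized count above the control median of the same transcript (log axis) for the 10 transcripts past the threshold, in the 6 AMPH hyper animals other than replicate 2, ordered from the largest rise to the smallest. The 5 solid lines (AABR07004881.1, both Eri3 transcripts, Insrr and LOC688754) run on top of each other from 60801 in replicate 4 to 5773 in replicate 5, which are their means, and the dashed lines of the other 5 transcripts run above or below them.

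The 2 transcripts of Eri3 were compared in reads, library by library. ENSRNOT00000092886 had more reads than ENSRNOT00000092863 in 14 of 14 libraries, by 11 to 70 reads in the controls (median 28) and by 6 to 56 reads in the AMPH hyper group (median 17). The difference was not larger in the AMPH hyper group, although the rise brought its libraries to as many as 2791 and 2735 reads. As a share of the reads of the first transcript, those of the second were 68.9% to 89.6% in the controls, with a median of 79.2%, and 80.8% to 99.7% in the AMPH hyper group, with a median of 98.0%. On the normalized scale the difference was 467 (SD 175, n = 7) in the controls and 398 (SD 150, n = 7) in the AMPH hyper group, while the means of the transcripts were higher by 20259 and 20327.

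The Insrr transcripts were also ordered the same way in each library, and ENSRNOT00000093009 had more reads in 14 of 14. The reads of ENSRNOT00000092753 were 53.8% to 98.9% of those of ENSRNOT00000093009 in the controls, with a median of 68.8%, and 1.73% to 66.4% in the AMPH hyper group, with a median of 8.03%. The 66.4% belongs to AMPH hyper replicate 2, in which neither Insrr transcript had left the control level. For AC114452.1, ENSRNOT00000079012 had 3.77% to 16.8% of the reads of ENSRNOT00000080427 in the controls, with a median of 6.52%, and 1.14% to 13.7% in the AMPH hyper group, with a median of 3.61%. Thus the counts rose on both transcripts of Eri3 but on 1 of the 2 transcripts of Insrr.

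**Figure D3:**
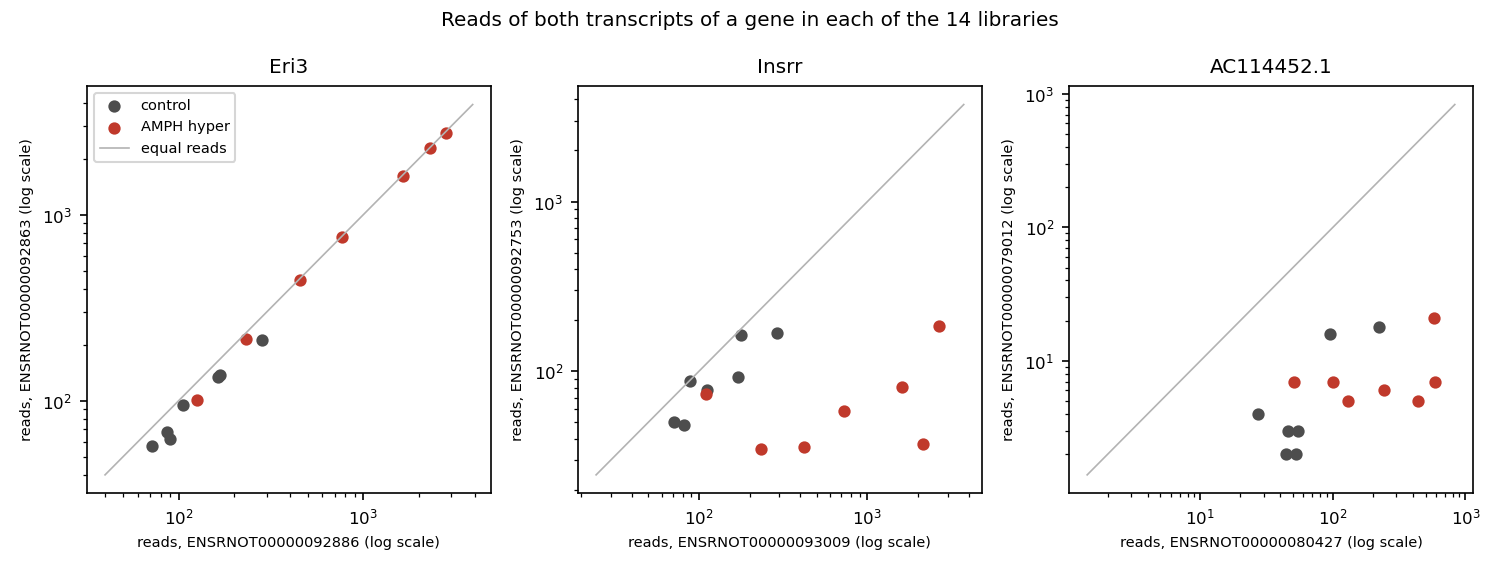
Reads of both transcripts of Eri3, Insrr and AC114452.1 in each of the 14 libraries (both axes log), with a line at equal reads. The Eri3 points of both groups lie just below the line, with 6 to 70 reads of difference, whereas the AMPH hyper points of Insrr and AC114452.1 move to the right, away from the line, with 1.73% to 66.4% and 1.14% to 13.7% of the reads on the second transcript.

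Transcripts with the same reads occur in this table. Of the 6120 transcripts with a mean of at least 5 reads, 335 have the same number of reads as another transcript in all 14 libraries, among them the ribosomal RNA gene Rn5-8s, which shares its 5610 to 71309 reads per library with 6 other transcripts. None of the 12 transcripts (0 of 12) was identical to another transcript in all libraries. How reads that match more than 1 transcript were handled is not given in the sources used here, and whether the same fragments were counted on several of the 12 transcripts was not tested.

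Covariation between the transcripts was measured on log2 of the normalized count plus 1 after subtraction of the mean of each group, which removes the difference by which the genes were chosen. Over all 14 libraries the median Pearson's r was 0.887 for the 63 pairs of transcripts of different genes and 0.919 for the 44 such pairs among the 10 transcripts past the threshold, of which 27 (61.4%) had an r of at least 0.9. Over all pairs of ncRNAs tested the median r was 0.005, and 0.105% had an r of at least 0.9. These values are descriptions, since the points are libraries that the transcripts share. The genes were chosen in the same libraries, so the contrast with all pairs was not independent of that choice. In addition, AMPH hyper replicate 2 lies far below the other animals of its group. Without that animal (13 libraries) the medians were 0.723 and 0.806.

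The covariation was closer in the AMPH hyper animals. Among the 6 without replicate 2, the 44 pairs had a median r of 0.934. Of these pairs 26 (59.1%) had an r of at least 0.9, against 1.21% of all pairs of ncRNAs. The genes were chosen with these animals in the test, so this contrast was not independent of the choice either. Among the 7 controls the 44 pairs had r from -0.03 to 0.961, with a median of 0.543, and 1 of them an r of at least 0.9, against 0.663% of all pairs. That pair was the Eri3 transcript ending in 92863 with AABR07042803.3. The range of levels was also much narrower in the controls, and the difference between the groups in r was not tested.

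Single pairs show how the transcripts divide. Among the 6 AMPH hyper animals AABR07004881.1, the Eri3 transcripts, the Insrr transcript ending in 93009 and LOC688754 had an r of 1.00 with each other, to 2 decimals, and of 0.99 with Rn60_3_0144.3. AABR07042803.3 and the AC114452.1 transcript ending in 80427, with an r of 0.95, were closer to each other than AABR07042803.3 was to AABR07004881.1 (0.73). The Insrr transcript ending in 92753 and the AC114452.1 transcript ending in 79012 had r of -0.20 and -0.45 with AABR07004881.1. In 6 transcripts (AABR07004881.1, both of Eri3, Insrr ending in 93009, AC123293.2 and LOC688754) the AMPH hyper animals stood in one order from the highest to the lowest: replicates 4, 1, 3, 7, 6, 5 and 2. In the controls, replicate 4 was the lowest animal in 7 of the 12 transcripts, replicate 3 the highest in 5 and replicate 6 the highest in 4.

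**Figure D4:**
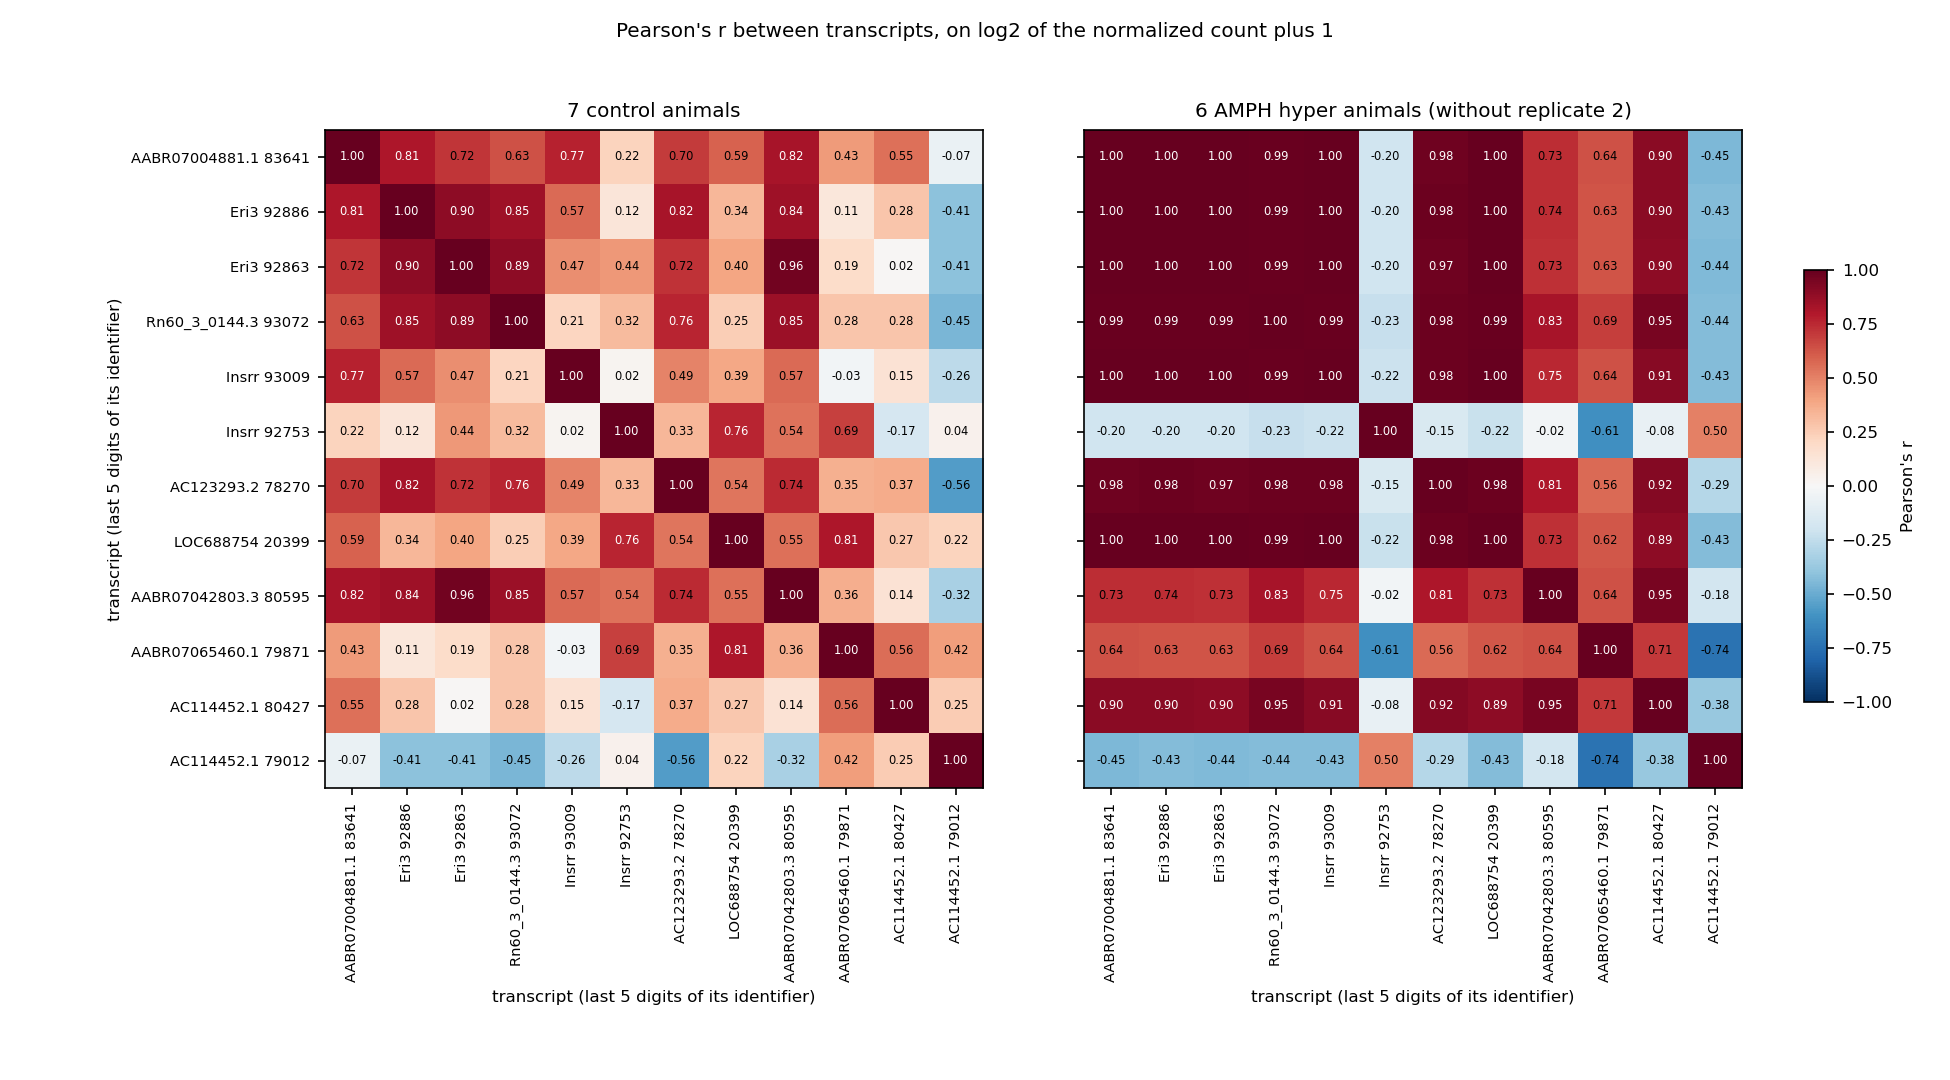
Pearson's r between the 12 transcripts on log2 of the normalized count plus 1, in the 7 control animals (left) and in the 6 AMPH hyper animals without replicate 2 (right), with colors from -1 (blue) to 1 (red). On the right a block of r near 1.00 holds AABR07004881.1, both Eri3 transcripts, Insrr ending in 93009 and LOC688754, with Rn60_3_0144.3 at 0.99, and the transcripts ending in 92753 and 79012 stand outside it.

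The features of the 3 tables that varied most like the 9 genes were taken by the r of their deviations from the group means with those of the mean of the 9 genes, over the 14 libraries. The 5 closest of 8441 other ncRNAs not past the threshold were Prep, RGD1560207, AABR07050146.1, AABR07072602.1 and AABR07030386.2. Prep, which encodes the peptidase prolyl oligopeptidase, had an r of 0.963 (0.939 without AMPH hyper replicate 2) and normalized counts of 8429 to 11276 in the controls, with a median of 10538, and of 9467 to 176600 in the AMPH hyper group, with a median of 37833. All AMPH hyper animals but replicate 2 exceeded the highest control in Prep. Its rise was 1.81 to 2.84 times that of AABR07004881.1, with a median of 2.10, close to the range of Rn60_3_0144.3.

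The other 4 had r of 0.924 to 0.962, or 0.817 to 0.904 without AMPH hyper replicate 2, which was the lowest AMPH hyper animal in each. RGD1560207 had normalized counts of 838 to 1276 in the controls, with a median of 974, and of 822 to 7914 in the AMPH hyper group, with a median of 4050. It rose by 0.118 to 0.230 times as much as AABR07004881.1. Of the other 3, AABR07050146.1 and AABR07072602.1 also had 6 of 7 AMPH hyper animals above every control, and AABR07030386.2 had 5. They rose by medians of 0.143, 0.077 and 0.330 times the rise of AABR07004881.1, so that these ncRNAs gained fewer fragments per animal than it did.

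The closest miRNA hairpins, of 476, were mir-218a-2 (r = 0.923, and 0.856 without AMPH hyper replicate 2), mir-6329 (0.868 and 0.809) and mir-673 (0.837 and 0.753). A hairpin is the precursor from which a mature miRNA of about the length of a small RNA read is cut, and the authors counted reads on hairpins and on mature miRNAs in separate tables. Hairpin mir-6329 is described further, a choice made after its values were seen, because it also separated the groups as the 10 transcripts did. The hairpin was thus chosen by that separation, so that the separation and its p-value are descriptions and not findings. Its RefSeq sequence, on the minus strand at chr8:61334239-61334329 of GRCr8, is printed here 5′ to 3′ with the mature miR-6329 (bases 16 to 38) in capitals, to show which part of the hairpin the 2 tables have in common.
mir-6329: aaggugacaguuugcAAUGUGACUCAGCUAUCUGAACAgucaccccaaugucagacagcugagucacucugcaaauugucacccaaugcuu

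Hairpin mir-6329 had normalized counts, on the scale of the hairpin table, of 62.5 to 122 in the controls, with a median of 94.2, and of 114 to 856 in the AMPH hyper group, with a median of 267. As in the 10 ncRNAs, 6 of 7 AMPH hyper animals exceeded the highest control, replicates 4 and 1 were the highest with 856 and 694, and replicate 2 lay within the control range. In mir-218a-2 and mir-673, 3 and 1 of 7 AMPH hyper animals exceeded the highest control. The share of all hairpins that separated the groups in this way was not counted. The mature miR-6329, the part in capitals, had 455 to 780 in the controls, with a median of 543, and 334 to 716 in the AMPH hyper group, with a median of 543. The groups overlapped, with AMPH hyper replicate 3 below every control, and AMPH hyper replicate 2 was the highest AMPH hyper animal.

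The log2 fold-change was 1.71 (SE 0.36) for the hairpin (limma over 476 hairpins, adjusted p = 0.0346, with 0.420% of hairpins past the threshold) and -0.11 (SE 0.21) for the mature miRNA (limma, adjusted p = 0.958). The hairpin was past the threshold in 2 of the 14 fits that left out 1 animal, without AMPH hyper replicate 2 and without AMPH hyper replicate 3, with adjusted p-values of 0.0026 to 0.115 over the 14 (limma). With control replicate 3 counted as AMPH hyper its adjusted p was 0.405 and without a trend 0.111 (limma). The reads behind the rise of the hairpin were not located within its sequence.

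**Figure D5:**
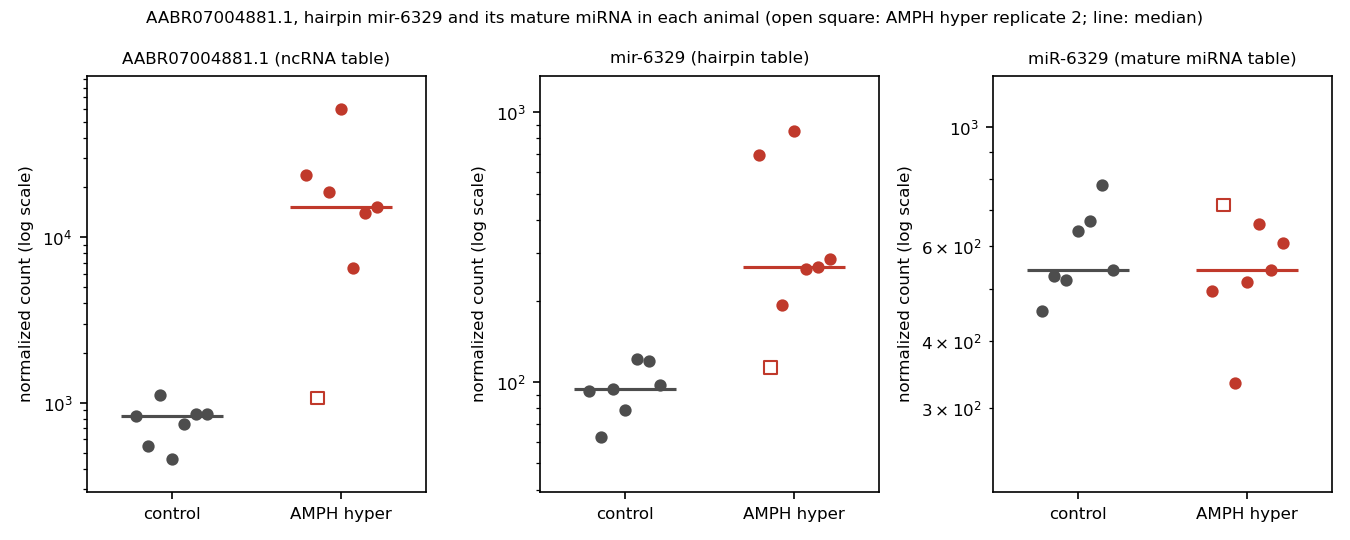
Normalized counts (log axes, scaled separately by the authors in each table) of AABR07004881.1, hairpin mir-6329 and mature miR-6329 in each of the 7 control and 7 AMPH hyper animals, with a line at the median and an open square for AMPH hyper replicate 2. In the first panels 6 of 7 AMPH hyper animals lie above every control, with medians of 15283 against 829 and 267 against 94.2, whereas the medians of miR-6329 are both 543.

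The closest of 330 mature miRNAs were miR-125b-2-3p (r = 0.738), miR-185-5p (0.671) and miR-132-3p (0.648), further from the 9 genes than the closest ncRNAs and hairpins. Without AMPH hyper replicate 2 the r of miR-185-5p was 0.247, so that its likeness rests on that animal, and those of the other miRNAs were 0.757 and 0.793. Their RefSeq sequences (GRCr8, plus strand, chr11:29732627-29732648, chr11:96169041-96169062 and chr10:60522091-60522112) are given 5′ to 3′ with the seed, bases 2 to 8, in capitals. The seed is the stretch by which a miRNA pairs with its targets, and these 3 miRNAs have different seeds.
miR-125b-2-3p: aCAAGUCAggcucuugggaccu
miR-185-5p: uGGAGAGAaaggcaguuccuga
miR-132-3p: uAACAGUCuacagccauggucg

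Their levels did not separate the groups as the ncRNAs did. The normalized count of miR-125b-2-3p was 116 to 380 in the controls, with a median of 219, and 119 to 542 in the AMPH hyper group, with a median of 206. That of miR-132-3p was 41.0 to 104 in the controls, with a median of 66.1, and 32.4 to 206 in the AMPH hyper group, with a median of 65.8.

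Markers of blood cells and of other tissues were set beside the mean of the 9 genes in the same way. The lymphocyte miRNA miR-150-5p had the r of the largest size over the 14 libraries, with -0.776, and -0.434 without AMPH hyper replicate 2. It was between 30998 and 65231 normalized counts in the controls, with a median of 39434, and between 6710 and 104295 in the AMPH hyper group, with a median of 15867, and AMPH hyper replicate 2 was the highest of all. The summed muscle miRNAs (5 of 6 listed matched) were between 51.9 and 5448 in the controls, with a median of 393, and between 201 and 1819 in the AMPH hyper group, with a median of 1467, with replicate 2 the lowest of that group (r = 0.424, and 0.188 without replicate 2). None of the AMPH hyper animals (0 of 7) was above control replicate 6, the 5448, whereas 5 of 7, at 1070 or more, were above the next highest control, at 775. Within that list, miR-206-3p of skeletal muscle had 0 reads in each of the 7 controls, where up to 3 reads per library are allowed by a count of 0. It had 2 to 24 reads in each AMPH hyper animal but 1 (12.6 to 168 normalized counts). The others matched, miR-1-3p, miR-133a-3p, miR-133b-3p and miR-499-5p, overlapped between the groups. For miR-499-5p the controls ran from 7.42 to 180 and the AMPH hyper animals from 12.6 to 49.4. For miR-1-3p these ranges were 32.5 to 3132 and 37.7 to 929. They were 6.49 to 2018 and 119 to 1025 for miR-133a-3p, and 0 to 118 and 18.8 to 166 for miR-133b-3p. Control replicate 6 was the highest control in each of these miRNAs. The next highest control, replicate 7, was at 219 for miR-133a-3p and at 27.4 for miR-133b-3p.

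The summed miR-223-3p and miR-142-3p had an r of -0.398 with the 9 genes and of -0.536 without AMPH hyper replicate 2. The latter was then the largest in size of the 6 marker lists. Both were listed for myeloid cells, but miR-142-3p is also found in other blood cells, so the r is not that of myeloid cells alone. The r was 0.411 for the red blood cell miRNAs, -0.135 for miR-126a-3p of endothelium and platelets, and 0.235 for the liver miRNA miR-122-5p. For the depth and makeup of the libraries, the r was -0.149 with the reads on ncRNAs, 0.008 with the share of 5S ribosomal RNA, -0.019 with that of Rn5-8s and -0.378 with that of mitochondrial transcripts. The part of any of these in the rise of the 9 genes was not tested.

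The transcripts of related genes were few. Of 30 listed genes of RNA exonucleases and small RNA processing, Eri3 is the only gene in the table. Of 12 listed genes of the insulin receptor family and its partners, Irs4 was in the table beside Insrr, with 1 transcript, and 0 passed the threshold in either direction. Irs4, an adaptor of the insulin and IGF-1 receptors, had a log2 fold-change of 0.10 (SE 0.28, limma, adjusted p = 0.937).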

How the data were processed

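Libraries of small RNA from the blood of 14 animals, 7 control and 7 AMPH hyper, were grouped by their labels. The signal values in the deposited tables of ncRNAs, mature miRNAs and hairpins are reads that the authors scaled, table by table, so that the upper quartile of each library equals 1000. Bowtie is named in the submitters' processing notes, and the handling of reads with several matches is not given in the sources used here. Reads were recovered from the ncRNA values, of which 100% came out whole within 0.01 reads. Of the mature miRNA values 55.0% did, so that the reads given for miRNAs are rounded values.

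The 12 transcripts were found by gene name. The members and lists were chosen with earlier results of these data known, so that the group difference is given as a description. The two-sided test was that of limma 3.58.1 (R 4.3.3; eBayes with a trend). It was run on log2(normalized count + 1) of those features whose mean over all libraries reached 10, and the Benjamini-Hochberg adjustment was over every feature tested. Fold-changes of features with few reads depend on the pseudocount and the tool. That of the AC114452.1 transcript ending in 79012 was 0.92 here (log2). It was 0.84 with a pseudocount of 10, 0.57 with edgeR and 0.56 with DESeq2. The p-values set the difference between the groups against the spread between these animals, moderated by the trend over all features tested. The floor of 3 reads covers counting error only. The 5 ncRNAs, 3 miRNAs and 3 hairpins most like the 9 genes, other than ncRNAs past the threshold, were taken by Pearson's r within groups, and 1 ncRNA past the threshold is not a member and is not named. Alternatives on the recovered reads were DESeq2 1.42.0 and edgeR 4.0.16 (quasi-likelihood). The fit was also tested on simulated data before use. A gene of the insulin receptor list is not reported here.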

Additional observations from a re-analysis of the deposited data

How the results depend on the processing

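The log2 fold-changes of the 12 transcripts kept their direction under every alternative run. These changed the pseudocount (0.5 or 10), the filter (none, or a mean of 50 or more), the scaling (quantile or median-of-ratios), the tool (no trend, robust eBayes, edgeR or DESeq2), the replicate block, the group of animal FG185, or left out 1 animal at a time. The number of ncRNAs past the threshold, 11 with limma, was 7 under quantile normalization and under median-of-ratios scaling (7 of the 12 transcripts in each), 16 with edgeR and 64 with DESeq2 (10 of the 12 transcripts with either). It was 0 with limma without trend (533 at an unadjusted p-value under 0.05, 11 of them among the 12 transcripts) and 0 with FG185 as AMPH hyper (526, with 10 of the 12). With each animal left out it was between 0 and 33, and that of the 12 transcripts between 0 and 10 (479 to 747 ncRNAs had an unadjusted p-value under 0.05). Only without control replicate 3 and AMPH hyper replicates 2, 4 or 5 was it above 0. The median r between the 12 transcripts was 0.688 as Spearman's rho and between 0.723 and 0.906 with each animal left out, lowest without AMPH hyper replicate 2. The log2 fold-change of miR-6329, -0.11, ranged from -0.175 to 0.0075 with each animal left out, with 0.0075 without AMPH hyper replicate 3, and the cause was not tested.

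The fit with the replicate block gave 0 ncRNAs past the threshold with limma (605 at an unadjusted p-value under 0.05) and 0 of the 12 transcripts (10 at an unadjusted p-value under 0.05). The numbers do not pair the animals, since 1 of the 7 pairs had a correlation of deviations over 0.1, with a range of -0.022 to 0.231. Transcripts with few reads, such as the AC114452.1 transcript ending in 79012 with 2 to 21 reads per library, limit what could be seen. Alternatives with mir-6329 and the pairs of the 10 transcripts were added after seeing the data.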
